A study of Mus musculus with 12 samples.

Results

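The 10 genes described here belong to the Notch pathway and were taken by their symbols from the count tables of the series. They are the ligands Dll1, Dll3 and Jag1, the receptors Notch1, Notch2 and Notch3, the DNA-binding factor Rbpj, and the targets Hes1, Hes5 and Hey1, and they make up 10 of the 46603 genes counted. Each symbol matched a single gene. RNA was sequenced from microdissected neocortex of mouse embryos at E12.5 (both hemispheres) and of pups at P5 (a single hemisphere). Each stage had 3 Chd8+/+ and 3 Chd8+/- libraries, so that there were 12 libraries in 4 groups. Chd8 encodes a chromatin remodeling factor. Chd8+/- mice carry 1 null allele, in which a single exon was removed in all tissues by crossing a floxed line with a β-actinCre line, and they were bred with C57BL/6J mice, as were their Chd8+/+ controls. The Cre line is active ubiquitously and the Cre transgene was later bred out, so that the deletion is inherited and not limited to neural cells. The tissue was sequenced whole, with its vessels and any attached tissue, and a level falls alike when fewer cells of a type are present and when each cell holds less RNA, which cannot be told apart here. Nothing in the sources says whether the libraries of a group came from separate litters, so that p-values measure the spread between these samples.

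Notch signaling passes between neighboring cells. A Delta or Jagged ligand on the surface of a cell binds a Notch receptor on its neighbor, the receptor is cut by an ADAM protease and by gamma-secretase, and its intracellular part enters the nucleus, where it joins Rbpj and a Mastermind protein and switches on Hes and Hey genes. Hes and Hey proteins are repressors that keep proneural factors such as Neurog2 low. In embryonic neocortex the pathway is known for holding radial glia in a dividing state while their Dll1-bearing daughters become neurons, and after birth it is also known in astrocytes and in blood vessels.

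Between 38774591 and 54695236 reads were counted on genes per library, with medians of 47869791 and 43965448 in the Chd8+/+ and Chd8+/- groups at E12.5 and of 45773945 and 42465418 at P5. Levels are given as CPM, counts divided by the library size after TMM scaling. Behind them stand between 221 counts (Dll3 at P5) and 14710 counts (Notch1 at E12.5) per gene and library. Chd8 itself stood at 234, 229 and 235 CPM in the E12.5 Chd8+/+ libraries against 162, 167 and 161 CPM in the Chd8+/- libraries, and at 151, 151 and 145 CPM against 95.7, 98.6 and 95.01 CPM at P5. No library went against its label, and the log2 fold change was -0.51 (SE 0.04, edgeR adjusted p = 0.00562) at E12.5 and -0.61 (SE 0.03, edgeR adjusted p = 7.21e-05) at P5. At E12.5 the call of Chd8 was lost without Chd8+/+ replicate 3 (edgeR adjusted p = 0.141), Chd8+/- replicate 1 (0.124) or Chd8+/- replicate 3 (0.122), with a log2 fold change between -0.52 and -0.50 whichever library was left out. A P5 Chd8+/- library, replicate 3, stood apart from the others of its group. Its chi-squared per degree of freedom over genes was 45.4 and 40.0 against them, where other pairs of the same group lay between 6.58 and 16.7. The P5 genotype differences of Notch1, Hes5 and the Notch pathway genes that DESeq2 called are also given without it.

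The promoters of the genes were read for the letters of known binding motifs, since Rbpj and Hes proteins are known to act by binding DNA. RefSeq promoters on GRCm38.p6 were given for 8 of the 10 genes, in 10 windows. The reads had been aligned to GRCm38.p4, another patch of the same assembly. The 250 bases before the start of transcription were searched on both strands for the core of the Rbpj site, TGGGAA, for the N box of Hes proteins, CACNAG, for their class C site, CACGNG, and for the E box of proneural factors, CANNTG. Hes5 is shown as a target with paired Rbpj letters, Notch1 as the receptor whose P5 libraries did not overlap between the genotypes, Dll1 as the gene with the largest fall after E12.5, and Notch3 as a window with letters of both Hes motifs. Capitals mark matches to TGGGAA in Hes5 and matches to CACNAG or CACGNG in the others, in either orientation.
Hes5: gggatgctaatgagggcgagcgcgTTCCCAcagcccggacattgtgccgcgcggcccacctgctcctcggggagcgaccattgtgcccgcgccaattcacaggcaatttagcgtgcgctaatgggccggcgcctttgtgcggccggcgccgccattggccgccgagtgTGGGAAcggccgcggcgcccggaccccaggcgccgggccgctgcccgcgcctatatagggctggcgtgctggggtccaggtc
Notch1: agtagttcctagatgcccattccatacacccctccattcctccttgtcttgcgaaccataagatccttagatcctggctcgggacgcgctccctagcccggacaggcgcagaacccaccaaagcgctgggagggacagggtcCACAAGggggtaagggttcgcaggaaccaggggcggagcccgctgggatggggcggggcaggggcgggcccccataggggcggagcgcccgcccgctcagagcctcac
Dll1: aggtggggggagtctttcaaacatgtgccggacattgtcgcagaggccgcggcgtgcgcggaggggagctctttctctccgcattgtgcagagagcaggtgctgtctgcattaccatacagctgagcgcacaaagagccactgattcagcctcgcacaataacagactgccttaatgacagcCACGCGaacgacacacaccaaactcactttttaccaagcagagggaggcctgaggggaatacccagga
Notch3: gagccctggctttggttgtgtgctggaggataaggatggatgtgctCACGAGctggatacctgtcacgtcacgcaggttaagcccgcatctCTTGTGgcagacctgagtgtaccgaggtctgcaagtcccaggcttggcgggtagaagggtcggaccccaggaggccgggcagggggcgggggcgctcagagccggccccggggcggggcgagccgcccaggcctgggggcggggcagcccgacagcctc

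The Hes5 window, chr4:154960673-154960922 on the plus strand, holds TGGGAA at bases -82 to -77 and its reverse complement at -226 to -221 before the start. Both are preceded by G in their own orientation and so make the longer form GTGGGAA, which 5.42% of all 32851 promoter windows hold and which 0.161% hold more than once. The longer form was in no other window of the 10 genes. TGGGAA itself was in 21.6% of all windows, and among the other genes it was found in Rbpj. The Notch1 window, chr2:26503823-26504072 on the minus strand, held 1 match to the N box, at -108 to -103, and 36.7% of all windows hold 1 or more. It lies within the span of the Notch1 gene in the annotation of the counts, where it shares 2 bases with a Notch1 exon. The Dll1 window, chr17:15376933-15377182 on the minus strand, held 1 class C match at -68 to -63, and 23.5% of all windows hold 1 or more. It is the one of 2 Dll1 windows that lies outside the exons of Dll1, and the other, chr17:15375824-15376073, held a class C match at -105 to -100. The whole Dll1 window shown lies in an exon of A930024N18Rik, and part of the Hes5 window in an exon of Gm20421, genes on the opposite strands. In the Notch3 window, chr17:32166891-32167140 on the minus strand, an N box match and a class C match lie on the same bases, -204 to -199, and another N box match lies at -159 to -154. The E box was in 66.2% of all windows and is not marked. Such matches describe the letters and are not binding data. Hes5 lies at chr4:154960923-154962371 on the plus strand, Notch1 at chr2:26457903-26516663 on the minus strand, Dll1 at chr17:15367354-15376872 on the minus strand and Notch3 at chr17:32120820-32166880 on the minus strand, by the annotation of the counts.

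All 10 genes were lower at P5 than at E12.5, in both genotypes. The plot of levels by library shows the drop in each gene. Among the ligands, Dll1, the Delta ligand carried by newborn neurons and intermediate progenitors, stood at 132, 109 and 121 CPM in Chd8+/+ at E12.5 and at 16.9, 16.4 and 15.6 CPM at P5. In Chd8+/- neocortex it went from 115, 122 and 118 CPM to 14.3, 16.5 and 12.9 CPM. The stages did not overlap, and the log2 fold change from E12.5 to P5 was -2.89 (SE 0.08, edgeR adjusted p = 1.36e-13) in Chd8+/+ and -3.02 (SE 0.08, edgeR adjusted p = 9.76e-14) in Chd8+/-. This was the largest fall among the 10 genes. Dll3, a divergent Delta ligand that does not activate Notch in neighboring cells, stood at 23.3, 24.6 and 25.0 CPM in Chd8+/+ and at 23.6, 29.2 and 23.7 CPM in Chd8+/- at E12.5. At P5 it stood at 5.01, 6.04 and 4.88 CPM in Chd8+/+ and at 5.85, 5.70 and 5.45 CPM in Chd8+/-. A single library, Chd8+/- replicate 2, was higher than the other E12.5 libraries, and the stages were far apart. The log2 fold changes of Dll3 were -2.20 (SE 0.10, edgeR adjusted p = 1.90e-11) in Chd8+/+ and -2.17 (SE 0.10, edgeR adjusted p = 2.20e-11) in Chd8+/-. Jag1, a Jagged ligand also known in vessels, went from 44.8, 40.2 and 44.2 CPM to 11.2, 10.2 and 10.5 CPM in Chd8+/+ and from 39.1, 41.6 and 41.5 CPM to 8.77, 11.01 and 8.61 CPM in Chd8+/-. Its stages did not overlap, with log2 fold changes of -2.02 (SE 0.08) and -2.11 (SE 0.09).

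**Figure D1:**
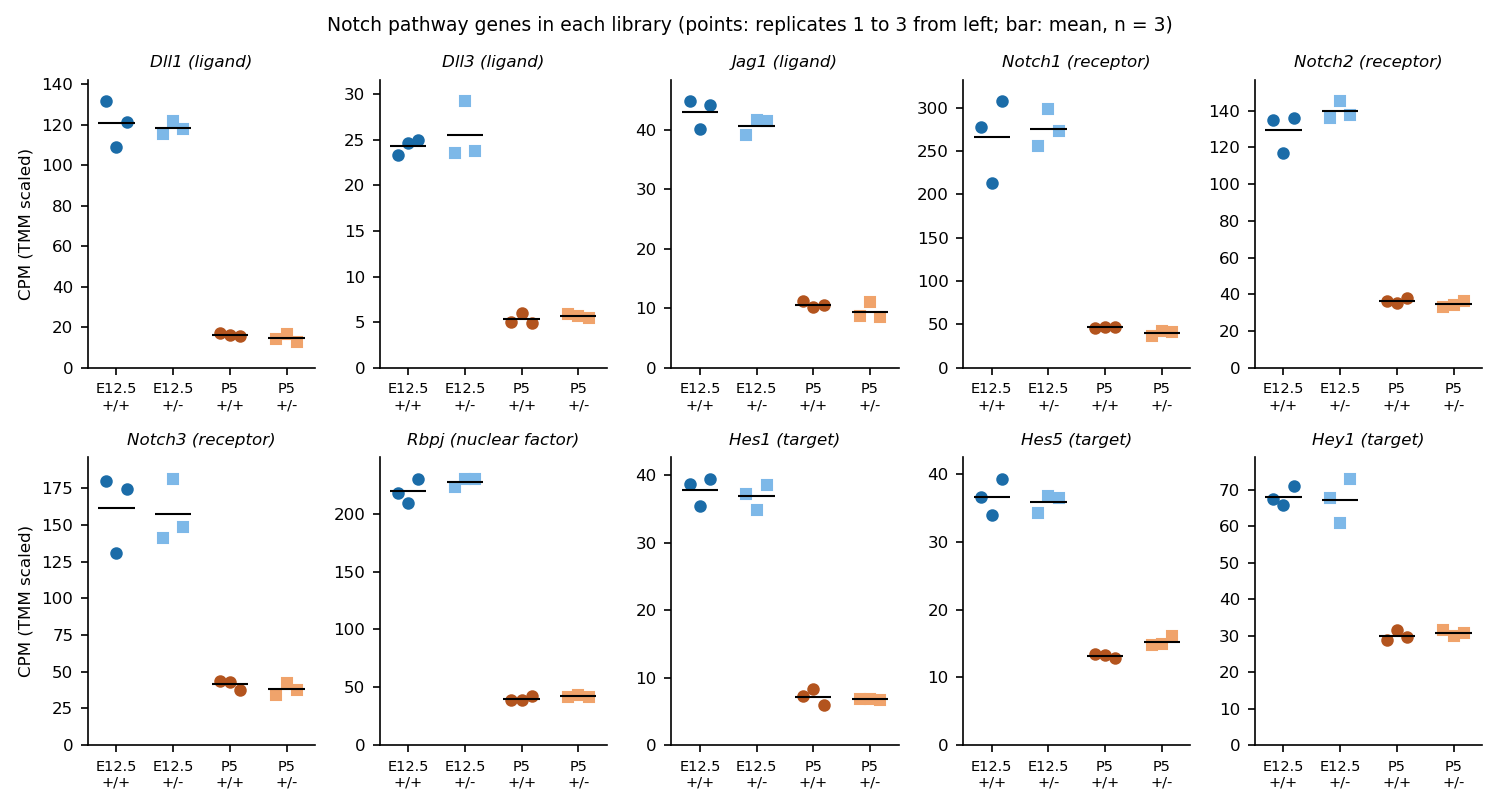
Level of each of the 10 genes in each library, in CPM on a linear axis from 0, with circles for Chd8+/+, squares for Chd8+/- and a bar at the mean of the 3 libraries of a group. In each panel the 6 P5 libraries lie below the 6 E12.5 libraries, and the genotypes of a stage lie close together.

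The receptors are single-pass membrane proteins that release their intracellular part when a ligand binds. Notch1, the receptor best known in radial glia, stood at 277.4, 213.1 and 307.5 CPM in Chd8+/+ and at 255.8, 298.8 and 273.4 CPM in Chd8+/- at E12.5. At P5 it stood at 46.1, 47.6 and 47.6 CPM in Chd8+/+ and at 37.1, 41.9 and 41.8 CPM in Chd8+/-. It spread widely at E12.5, narrowly at P5, and the stages were far apart, with a log2 fold change of -2.50 (SE 0.11, edgeR adjusted p = 1.34e-11) in Chd8+/+ and -2.78 (SE 0.11, edgeR adjusted p = 4.66e-12) in Chd8+/-. Notch2 went from 135, 117 and 136 CPM to 36.3, 35.2 and 38.0 CPM in Chd8+/+ and from 136, 145 and 138 CPM to 33.3, 34.2 and 36.2 CPM in Chd8+/-. The fall of Notch2 was smaller than that of Notch1, at -1.83 (SE 0.06) and -2.01 (SE 0.06) on the log2 scale. Notch3, a receptor also known in the mural cells of vessels, went from 179.7, 131 and 174 CPM to 43.4, 43.3 and 37.7 CPM in Chd8+/+ and from 141, 182 and 149 CPM to 33.8, 42.5 and 37.7 CPM in Chd8+/-. It had the widest standard errors of the 10 genes, 0.12 in Chd8+/+ and 0.13 in Chd8+/-, around log2 fold changes of -1.96 and -2.05, and its stages did not overlap either.

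Rbpj encodes the DNA-binding protein through which all the receptors act. It stood at 218, 209 and 231 CPM in Chd8+/+ and at 223, 230.4 and 230.4 CPM in Chd8+/- at E12.5. At P5 it stood at 38.9, 39.3 and 42.0 CPM in Chd8+/+ and at 41.5, 43.1 and 41.9 CPM in Chd8+/-. Its libraries lay close together within each group, and the log2 fold change was -2.45 (SE 0.04, edgeR adjusted p = 1.39e-15) in Chd8+/+ and -2.44 (SE 0.04, edgeR adjusted p = 1.47e-15) in Chd8+/-.

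The targets Hes1, Hes5 and Hey1 encode basic helix-loop-helix repressors, and they fell by unequal amounts. Hes1 went from 38.7, 35.4 and 39.5 CPM to 7.21, 8.27 and 5.89 CPM in Chd8+/+ and from 37.2, 34.8 and 38.6 CPM to 6.78, 6.76 and 6.74 CPM in Chd8+/-. Its fall, -2.41 (SE 0.09) and -2.45 (SE 0.09) on the log2 scale, lay near that of Rbpj. Hes5 stood at 36.5, 34.0 and 39.3 CPM in Chd8+/+ and at 34.2, 36.7 and 36.5 CPM in Chd8+/- at E12.5, close to the CPM of Hes1. At P5 it kept 13.5, 13.3 and 12.8 CPM in Chd8+/+ and 14.7, 14.9 and 16.1 CPM in Chd8+/-. The log2 fold change of Hes5 was -1.47 (SE 0.06, edgeR adjusted p = 1.53e-11) in Chd8+/+ and -1.23 (SE 0.06, edgeR adjusted p = 1.18e-10) in Chd8+/-, and its confidence interval in Chd8+/+, -1.61 to -1.34, did not reach that of Hes1, -2.61 to -2.21. Hey1 fell least of the 10 genes, from 67.4, 65.9 and 71.1 CPM to 28.8, 31.4 and 29.7 CPM in Chd8+/+ and from 67.7, 61.0 and 73.1 CPM to 31.5, 29.9 and 30.7 CPM in Chd8+/-. Its stages did not overlap, with log2 fold changes of -1.19 (SE 0.06, edgeR adjusted p = 2.22e-10) and -1.13 (SE 0.06, edgeR adjusted p = 3.94e-10).

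Lower calls at P5 were common among all genes. Of the 19676 genes tested in a model of all 12 libraries, 41.7% were called lower at P5 in Chd8+/+ and 41.6% in Chd8+/-, against 10 of the 10 Notch genes in each genotype. For the 10 genes the log2 fold changes had a median of -2.11 in Chd8+/+ and -2.14 in Chd8+/-, where all genes had -0.02 and -0.00462. Larger falls than that of Dll1 were fitted for 3.27% of genes in Chd8+/+, larger falls than that of Notch1 for 4.43%, and larger falls than that of Hey1 for 16.4%. Stage and count table are the same split of the libraries, and they cannot be told apart. A trend of the counts with gene length moved the median of all genes by -0.26 in Chd8+/+ and by -0.23 in Chd8+/- when it was fitted as an offset. The log2 fold changes of the 10 genes moved with it, by a median of -0.24 and -0.21, and all 10 were called lower under it.

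**Figure D2:**
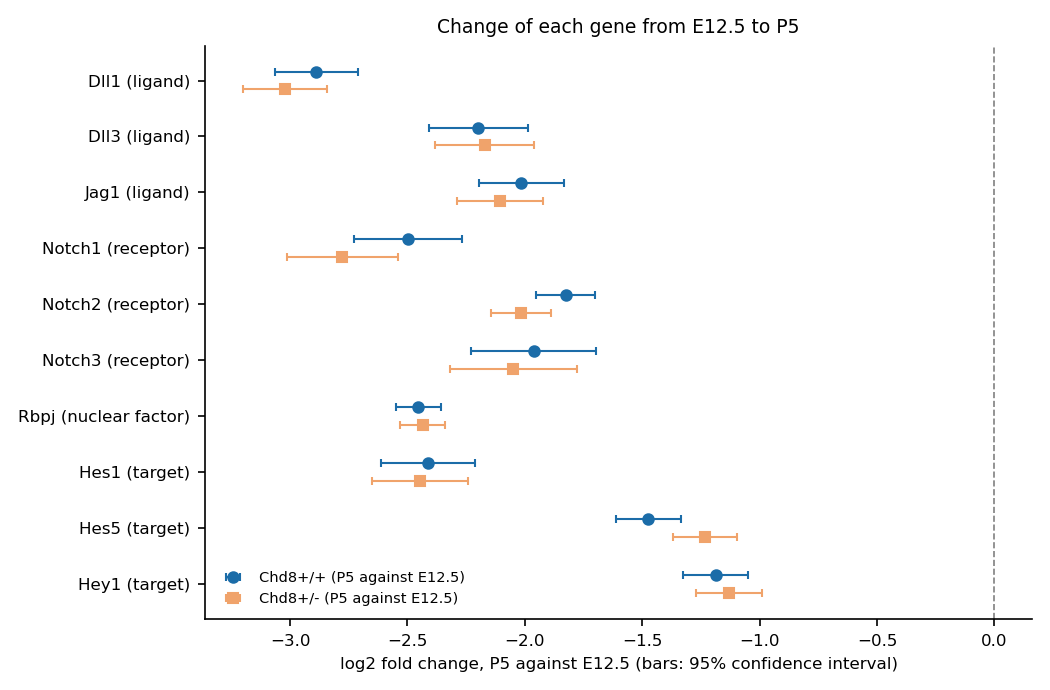
Log2 fold change from E12.5 to P5 of each of the 10 genes in Chd8+/+ (circles) and Chd8+/- (squares), with 95% confidence intervals from the model of all 12 libraries. All 20 values lie below 0, between -3.02 for Dll1 and -1.13 for Hey1, and the intervals of the genotypes overlap for each gene.

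Markers of several cell types moved with stage, and their part in the fall of the Notch genes was not tested. The 9 markers of neural progenitors, the cells in which the receptors and targets are known, summed to 3964 to 4287 CPM at E12.5. At P5 the sums were 668 to 819 CPM. Of the 9 markers, 8 were called lower and 1 higher in each genotype. Of 8 astrocyte markers, 7 were called higher at P5 in each genotype, with sums of 360 to 401 CPM at E12.5 and 1555 to 1788 CPM at P5. The 8 markers of excitatory neurons summed to 534 to 785 CPM at E12.5 and 1760 to 1871 CPM at P5. Of them, 5 were called higher and 2 lower in each genotype. Of 6 markers of intermediate progenitors and newborn neurons, among them cells that carry Dll1, 4 were called lower and 1 higher in each genotype, and Eomes went from 153 ± 5.31 CPM to 4.30 ± 0.305 CPM in Chd8+/+ (SD, n = 3). Of 7 erythrocyte markers, 6 were called lower and 1 higher in each genotype. Their sums were 3059 to 4231 CPM at E12.5 and 106 to 131 CPM at P5. The 8 markers of pericytes and smooth muscle, mural cells that are known to carry Notch3, summed to 122 to 139.7 CPM at E12.5 and 300.4 to 342 CPM at P5, with 4 called higher and 1 lower in Chd8+/+ and 5 and 2 in Chd8+/-. Of 7 markers of the oligodendrocyte lineage, 6 were called higher in Chd8+/+ and 7 in Chd8+/-, with sums of 116 to 153 CPM at E12.5 and 458 to 509.7 CPM at P5. Of 7 microglial markers, 6 were called higher in each genotype (32.03 to 39.4 CPM and 105 to 139.9 CPM), and so were 7 of 7 markers of striatal neurons (15.8 to 18.9 CPM and 228 to 341 CPM). Of 7 choroid plexus markers, 4 were called higher and 2 lower in Chd8+/+ and 3 and 2 in Chd8+/-, with sums of 91.9 to 170.2 CPM and 324 to 577 CPM. The endothelial markers had close sums, at 230 to 263 CPM and 208 to 261 CPM, but moved in both directions, with 3 of 8 called higher and 4 lower in Chd8+/+ and 2 and 5 in Chd8+/-. Every marker of these lists had counts in each group, those of striatal neurons and choroid plexus among them. Having counts therefore does not test the label of the tissue.

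Per kilobase of exon, the scale on which genes can be compared, Dll1 and Hes5 led the 10 genes at E12.5 (28.6 ± 2.65 and 26.9 ± 1.97 CPM per kilobase in Chd8+/+, SD, n = 3), and their libraries overlapped. Hey1 (20.9 ± 0.818), Notch3 (20.1 ± 3.35), Notch1 (18.7 ± 3.39), Hes1 (18.6 ± 1.077) and Rbpj (17.2 ± 0.832) followed, and each overlapped with the next in this order. Notch2 (11.99 ± 0.997), Dll3 (8.53 ± 0.316) and Jag1 (7.39 ± 0.430) stood below them without overlap. At P5 the order was another. Hes5 (9.67 ± 0.255) and Hey1 (9.17 ± 0.415) led in Chd8+/+ and overlapped, and Notch3 followed at 5.15 ± 0.405. Dll1 had gone from the first place to the fourth, at 3.86 ± 0.160 CPM per kilobase, where it overlapped with Hes1 (3.50 ± 0.585). Notch2 (3.38 ± 0.130), Notch1 (3.31 ± 0.0581) and Rbpj (3.14 ± 0.134) also overlapped with their neighbors, and Dll3 (1.86 ± 0.224) and Jag1 (1.83 ± 0.0900) were the lowest. In Chd8+/- the order on full exon lengths was the same at E12.5, where Dll1 and Hes5 did not overlap. At P5, Rbpj stood above Notch2 and Notch1 in Chd8+/-, and Hes5 (11.2 ± 0.535) no longer overlapped with Hey1 (9.41 ± 0.245). Reads on exon bases shared with an overlapping gene may have been left unassigned, which was not tested. They number 433 of 1363 bases in Hes5, 867 of 4219 in Dll1, 488 of 8044 in Notch3, 541 of 10782 in Notch2, and 1068 and 414 of 14232 in Notch1 with each of its overlapping genes. With them taken out of the lengths, Hes5 stood above Dll1 at E12.5 (39.38 and 36.001 CPM per kilobase in Chd8+/+). On those lengths Notch1 stood below Notch3 and Hey1 at E12.5 in Chd8+/+ and above them in Chd8+/-, so that the order at E12.5 was then not the same in the genotypes, and at P5 in Chd8+/+ it stood at 3.69 CPM per kilobase, above Notch2 (3.56) and Hes1 (3.50). At P5 in Chd8+/-, Notch2 then stood at 3.37 and Rbpj below it at 3.31.

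The make-up of each role changed with stage as well. Of the summed ligand level per kilobase, Dll1 held 62.5 to 66.3% over the E12.5 Chd8+/+ libraries and 50.1 to 52.1% over the P5 Chd8+/+ libraries, and the stages did not overlap. Jag1 rose in share from 16.6% ± 0.234 to 24.2% ± 1.44 (SD, n = 3), although its own level fell. Among the receptors, the share of Notch1 went from 35.9, 35.6 and 38.7% to 27.0, 27.9 and 28.9% in Chd8+/+, without overlap. That of Notch3 overlapped between the stages, at 38.6 to 41.1% and 40.6 to 44.9%. In the targets, Hes1 dropped from 28.04% ± 0.496 to 15.6% ± 1.92 and Hey1 climbed from 31.5% ± 0.711 to 41.1% ± 1.46. The shares are a description, and they rest on the same counts as the fold changes.

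**Figure D3:**
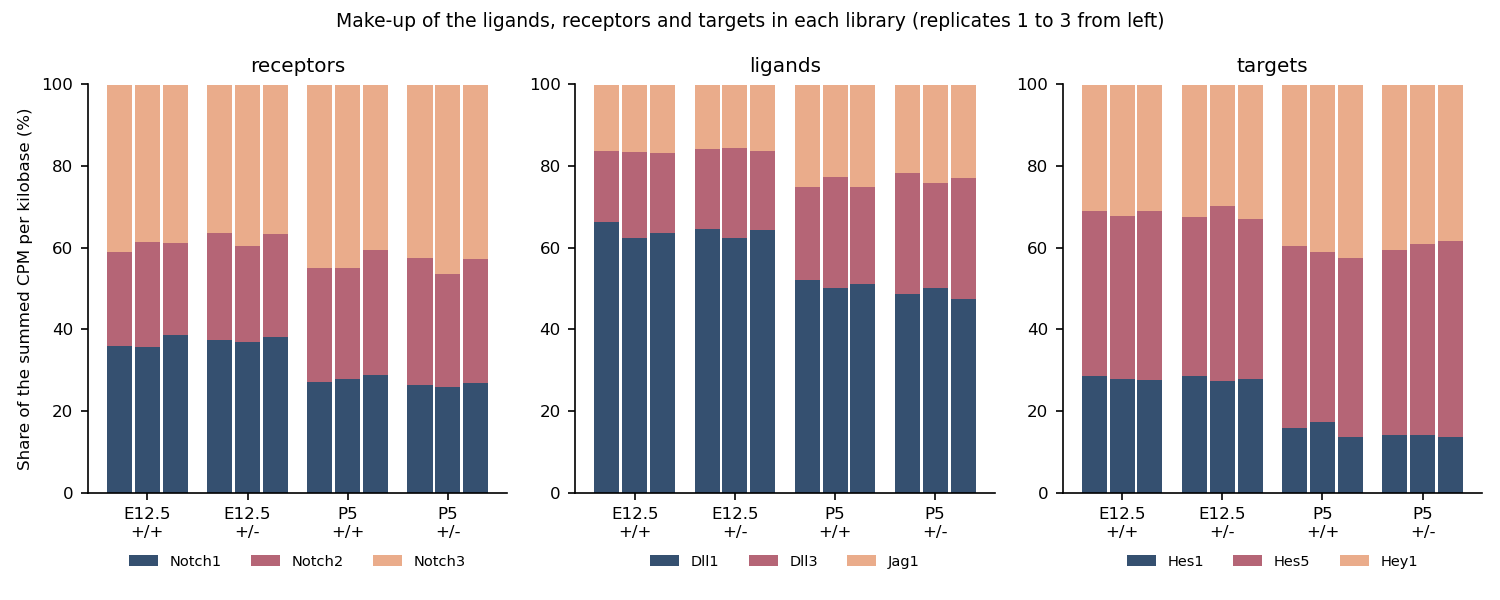
Share of each gene in the summed CPM per kilobase of the 3 receptors, the 3 ligands and the 3 targets, as stacked bars from 0 to 100%, with a bar for each library. Dll1 holds at least 62.4% of the ligand level in every E12.5 library and at most 52.1% in every P5 library, and Hes1 holds at least 27.3% of the target level in every E12.5 library and at most 17.3% in every P5 library.

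Within a stage, the question was whether the loss of 1 Chd8 allele moves these genes. At E12.5 it was not detectable in the 10 genes. With edgeR's quasi-likelihood test over 18081 genes, 0 of the 10 passed an adjusted p of 0.05 (0.00553% of all genes did, which was Chd8 alone). DESeq2 also called 0 of them (0.0374% of the genes it kept), and 0 had an unadjusted p under 0.05 (5.15% of all genes did). The log2 fold changes lay between -0.08 (SE 0.06, Jag1) and 0.11 (SE 0.06, Notch2), with 6 below 0 and 4 above it. Of the 10 genes, 1 had genotypes that did not overlap (11.4% of all genes did), namely Notch2, whose highest Chd8+/+ library stood at 136 CPM and whose lowest Chd8+/- library stood just above it at the same rounded value. Its edgeR adjusted p was 0.942. The 95% confidence intervals set what these 6 libraries could have shown. That of Rbpj ran from -3.57% to 11.81% in Chd8+/- relative to Chd8+/+, that of Dll1 from -10.9% to 7.88%, and that of Notch1, whose libraries spread widely, from -13.4% to 24.4%.

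The same libraries were often the lowest or the highest for several of the genes at E12.5. The E12.5 Chd8+/+ library with the lowest level was replicate 2 for 9 of the 10 genes, and the E12.5 Chd8+/- library with the lowest level was replicate 1 for 8 of the 10. The highest level lay in Chd8+/- replicate 2 for 8 of the 10 genes and in Chd8+/+ replicate 3 for 7 of the 10. At P5 no library was lowest for more than 5 of the 10 genes.

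**Figure D4:**
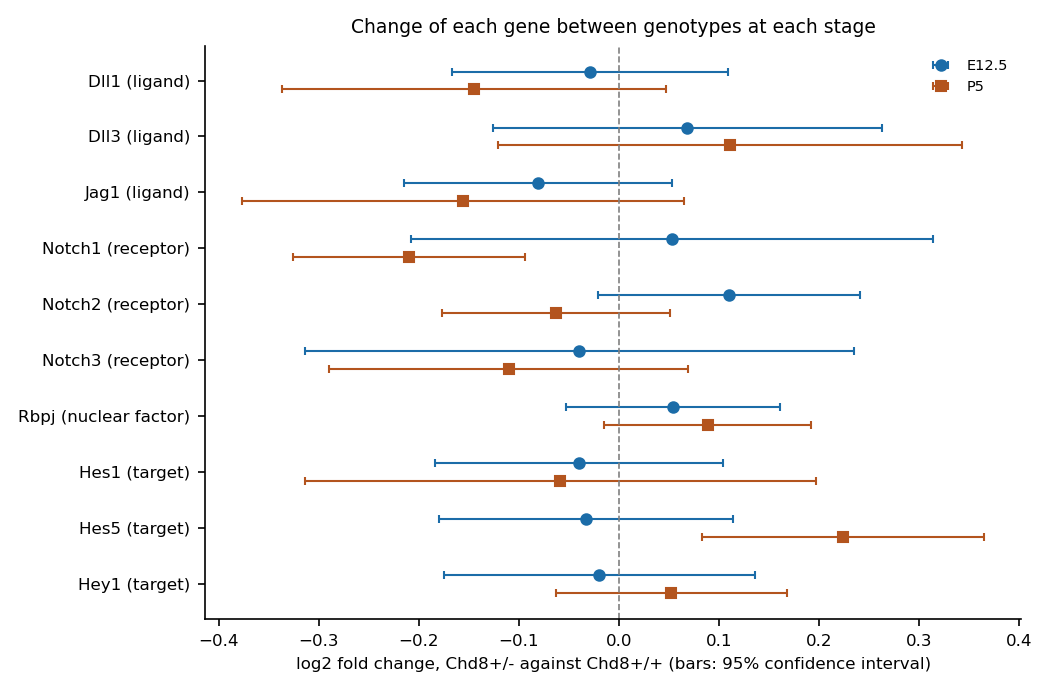
Log2 fold change of each of the 10 genes in Chd8+/- against Chd8+/+ at E12.5 (circles) and P5 (squares), with 95% confidence intervals from the 6 libraries of the stage. The intervals of all genes at E12.5 include 0, and at P5 those of Notch1, below 0, and Hes5, above 0, do not.

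At P5, Notch1 was lower and Hes5 higher in each Chd8+/- library than in each Chd8+/+ library, but differences of this kind were about as common among all genes. Neither passed edgeR's adjusted p over 18666 genes, where 0 of the 10 genes and 0.00536% of all genes, Chd8 alone, were called. These were the 2 of 10 genes with an unadjusted p under 0.05 (17.8% of all genes had one), and the 2 of 10 whose genotypes did not overlap (23.4% of all genes did not). DESeq2 called 1 of the 10, Notch1, and 5.28% of the genes it kept. These counts lie near the shares of all genes and show nothing particular to the 10 genes.

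The Chd8+/+ libraries held 46.1, 47.6 and 47.6 CPM of Notch1 at P5 and the Chd8+/- libraries 37.1, 41.9 and 41.8 CPM, so that the highest Chd8+/- library was below the lowest Chd8+/+ library. The log2 fold change was -0.21 (SE 0.05, edgeR unadjusted p = 0.00233, adjusted p = 0.116), with a DESeq2 adjusted p of 0.0247. Without edgeR's filter on low counts the adjusted p was 0.0129, and over the other alternatives of the same 6 libraries and the model of all 12 it reached 0.354. The call by DESeq2 rested on all 6 libraries or on those without Chd8+/- replicate 2 (adjusted p = 0.0220). It was lost without Chd8+/+ replicate 1 (adjusted p = 0.173), replicate 2 (0.129) or replicate 3 (0.0984), and without Chd8+/- replicate 1 (0.233) or replicate 3 (0.0585), by DESeq2 in each case. Without the library that stood apart, Chd8+/- replicate 3, the log2 fold change of Notch1 was -0.23. It was -0.13 with the offset for gene length. Notch1 also held a smaller share of the receptor level per kilobase in Chd8+/-, at 26.3, 25.8 and 26.8% against 27.0, 27.9 and 28.9% in Chd8+/+, which did not overlap. Levels of other cells moved in the same direction at P5. The 8 endothelial markers, from cells that are known to carry Notch1, summed to 231 to 261 CPM in Chd8+/+ and 208 to 229 CPM in Chd8+/-, with 6 of 8 lower at an unadjusted p under 0.05 and 3 of 8 called by DESeq2. At E12.5, where the log2 fold change of Notch1 was 0.05, the same markers were also lower without overlap, at 257 to 263 CPM in Chd8+/+ and 229.7 to 243 CPM in Chd8+/-, with 2 of 8 lower at an unadjusted p under 0.05. The 9 progenitor markers overlapped, at 668 to 819 CPM and 722 to 755 CPM, with 2 of 9 lower at an unadjusted p under 0.05. Markers of intermediate progenitors and newborn neurons were lower without overlap (1136 to 1178 CPM against 1041 to 1093 CPM, 4 of 6 lower at an unadjusted p under 0.05). So were those of interneurons (583 to 596 CPM against 488 to 560.5 CPM, 3 of 7). The sum of Cajal-Retzius markers was lower as well (402 to 408 CPM against 354 to 372 CPM, 1 of 5), but it was mostly Reln. Reln had means of 359 CPM in Chd8+/+ and 316 CPM in Chd8+/-, and Lhx1 was lower too (1.35 and 1.19 CPM). Calb2 (37.0 and 39.2 CPM) and Lhx5 (1.20 and 1.35 CPM) were higher in Chd8+/-, and Trp73 was level (6.62 CPM in both). Markers of the choroid plexus (445 to 577 CPM against 324 to 383 CPM) and of striatal neurons (312 to 341 CPM against 228 to 282 CPM), tissues next to the neocortex, were lower too. Sums that lie apart stay apart without Chd8+/- replicate 3, so that leaving it out is no check of them. The part of these cells in the level of Notch1 was not tested.

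Hes5 held 13.5, 13.3 and 12.8 CPM in the P5 Chd8+/+ libraries and 14.7, 14.9 and 16.1 CPM in the Chd8+/- libraries, each of which was above each Chd8+/+ library. The highest was replicate 3, the library that stood apart, and without it the log2 fold change of Hes5 went from 0.22 (SE 0.06, edgeR unadjusted p = 0.00511, adjusted p = 0.133) to 0.19 (edgeR adjusted p = 0.260). DESeq2 gave an adjusted p of 0.106, and no alternative called Hes5. The 8 astrocyte markers, from cells in which Hes5 is also known, overlapped between the genotypes (1723 to 1788 CPM and 1555 to 1778 CPM), and 0 of 8 had an unadjusted p under 0.05 or a DESeq2 call. Hes5 shares 433 exon bases with Gm20421 on the opposite strand, and that gene received 102 counts over the 12 libraries against 13891 for Hes5.

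The other 8 genes overlapped between the genotypes at P5. Among the ligands, the log2 fold change was -0.14 (SE 0.09) for Dll1, 0.11 (SE 0.10) for Dll3 and -0.16 (SE 0.10) for Jag1. The remaining receptors gave -0.06 (SE 0.05) for Notch2 and -0.11 (SE 0.08) for Notch3. Rbpj, at 0.09 (SE 0.05), had an edgeR adjusted p of 0.349, and its 95% confidence interval ran from -0.01 to 0.19. Of the targets, Hes1 gave -0.06 (SE 0.12) and Hey1 0.05 (SE 0.05). With the offset for gene length Notch2 turned sign, to 0.00441, while Notch3 went to -0.060, Jag1 to -0.12 and Rbpj to 0.16. Leaving out 1 P5 library at a time, by edgeR or DESeq2, gave -0.24 to -0.056 for Dll1, 0.060 to 0.21 for Dll3 and -0.28 to -0.082 for Jag1. The ranges of the same fits were -0.094 to -0.027 for Notch2, -0.20 to -0.033 for Notch3 and 0.067 to 0.13 for Rbpj. For the targets they were -0.17 to 0.059 for Hes1, which changed sign, and 0.024 to 0.087 for Hey1. None of the 8 had an adjusted p under 0.05 in these fits.

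The interaction of genotype and stage asks whether the genotypes differ in their change from E12.5 to P5. edgeR called 0 of the 10 genes and 0% of the 19676 genes tested, and DESeq2 called 0 of the 9 to which it gave an adjusted p, all but Dll3, and 0.0938% of the genes it kept. At an unadjusted p under 0.05 there were 2 of the 10 (10% of all genes). These were Hes5, at 0.24 on the log2 scale (SE 0.09, edgeR unadjusted p = 0.0180, adjusted p = 0.440), whose fall was smaller in Chd8+/-, and Notch2, at -0.19 (SE 0.08, edgeR unadjusted p = 0.0366, adjusted p = 0.472), whose fall was larger. The value for Notch1 was -0.28 (SE 0.15, edgeR adjusted p = 0.542), between -0.59 and 0.04. A difference between the stages in the response of Notch1 to genotype was therefore not shown.

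The rest of the pathway was read from lists of 53 genes by role, of which 51 were tested across stages. At P5, 30 of them were called lower in Chd8+/+ and 19 higher (41.4% of all genes were called higher), around a median of -0.49 on the log2 scale. In Chd8+/- there were 31 lower and 18 higher calls (41.3% of all genes were called higher), with a median of -0.63. The pathway as a whole thus did not move in the single direction of the 10 genes, as the plot of stage changes by role shows.

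**Figure D5:**
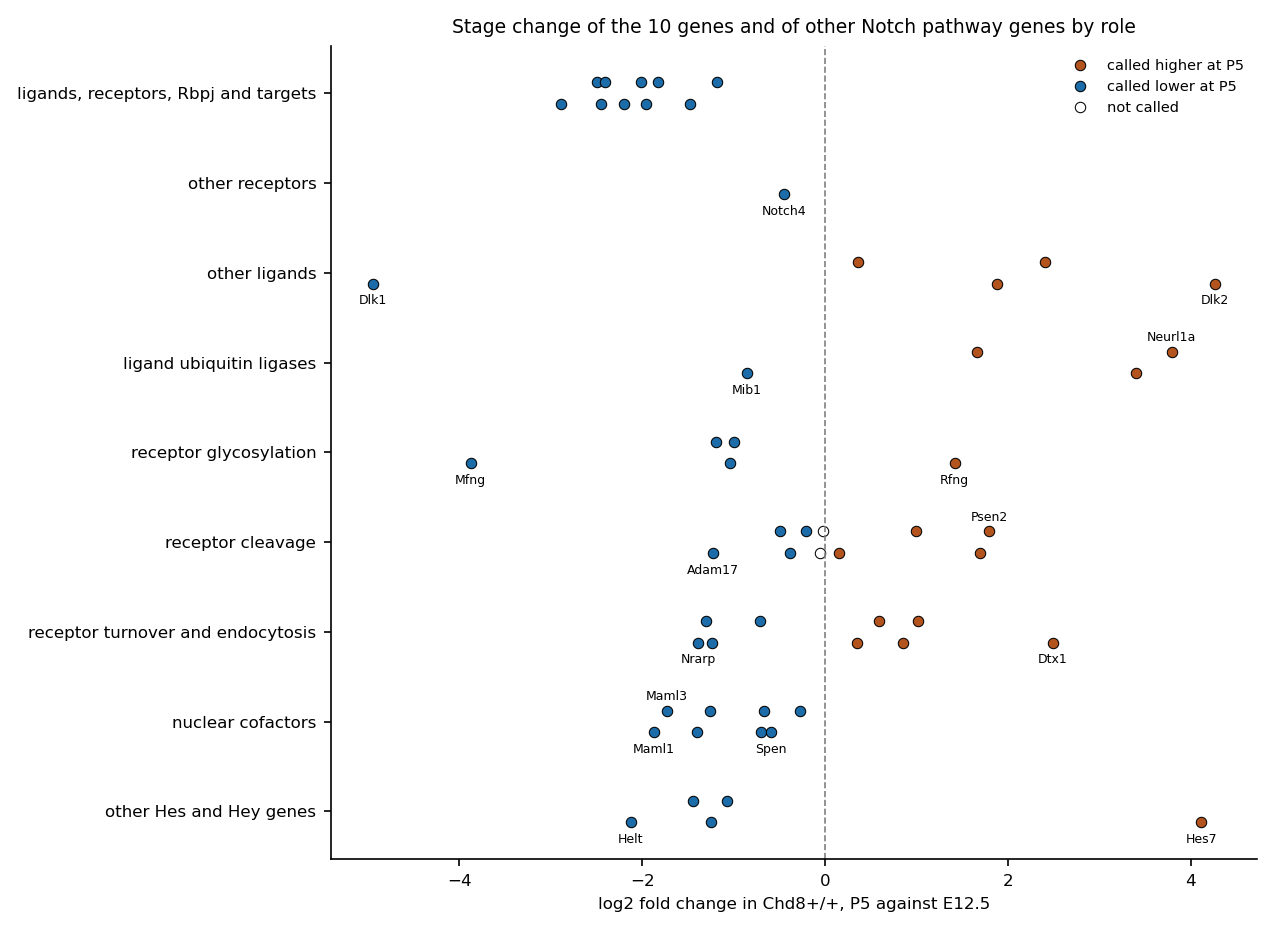
Log2 fold change from E12.5 to P5 in Chd8+/+ of the 10 genes (top row) and of other Notch pathway genes by role, with a point for each gene, blue where called lower, orange where called higher and white where not called. Proneural factors are not drawn, Rbpjl, with 1 count at E12.5, is left out, and points are shifted up or down only for legibility.

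Of the 5 other ligands, 4 rose and 1 fell, in contrast with Dll1, Dll3 and Jag1. Dlk2, a noncanonical Delta-like protein, rose from 1.46 to 2.30 CPM in Chd8+/+ at E12.5 to 35.6 to 40.0 CPM at P5, a log2 fold change of 4.26 (SE 0.15). Dlk1, its relative, fell from 74.1 to 83.3 CPM to 2.30 to 2.76 CPM, a log2 fold change of -4.95 (SE 0.27). Notch4, the remaining receptor and one known in endothelium, fell as well (log2 fold change -0.45, SE 0.09). Of 4 ubiquitin ligases that act on ligands, 3 rose and Mib1 fell (-0.86, SE 0.04), and Neurl1a rose most (3.79, SE 0.07). Among 5 enzymes that add sugars to the receptors, 4 fell and 1 rose. The fringe enzyme Mfng went from 96.4 to 101 CPM down to 6.49 to 6.94 CPM (-3.88, SE 0.05), and the fringe enzyme Rfng rose from 39.6 to 43.8 CPM up to 108 to 118 CPM (1.42, SE 0.05).

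The proteases that cut the receptor moved in both directions. Of 10 genes, 4 rose, 4 fell and 2 were not called in Chd8+/+, around a median of -0.04 on the log2 scale. The sheddase Adam17 had the largest fall (-1.23, SE 0.06) and the gamma-secretase subunit Psen2 the largest rise (1.79, SE 0.07). Of 9 genes of receptor turnover and endocytosis, 5 rose, with Dtx1 first (2.49, SE 0.11), and 4 fell, with Nrarp, a feedback inhibitor and itself a Notch target, first (-1.39, SE 0.09). Of 9 nuclear cofactors, 8 fell. The coactivator Maml1 had the largest fall (-1.88, SE 0.07). Rbpjl, a relative of Rbpj, was the exception, with 1 count over the 3 E12.5 Chd8+/+ libraries and 71 counts over the 3 P5 libraries, a ratio of 68.8 (95% counting interval 11.96 to 2755). Of the other Hes and Hey genes, 5 of 7 were tested (Hes2 and Hes3 were too low), 4 fell and 1 rose. Helt, the first of those that fell (-2.13, SE 0.28), and Hes7, which rose (4.12, SE 0.27), both stood at 2.08 CPM or less in every Chd8+/+ library. The proneural factor Neurog1 fell from 1715 counts over the 3 E12.5 Chd8+/+ libraries to 1 count over the 3 P5 libraries, a ratio of 1770 (95% counting interval 317 to 69946).

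Between the genotypes, edgeR called 0 of the 53 listed genes at either stage. DESeq2 called 0 at E12.5, where 5 of the 49 tested had an unadjusted p under 0.05 (5.15% of all genes had one). At P5 it called 4 (5.28% of all genes it kept were called), and 14 of the 50 tested had an unadjusted p under 0.05 (17.8% of all genes had one). The 4 genes are given as values, and their number shows nothing particular to the lists. The receptor Notch4 was lower in Chd8+/- at P5, as Notch1 was, at 10.4, 10.1 and 12.2 CPM in Chd8+/+ and 7.93, 8.80 and 7.11 CPM in Chd8+/- (-0.44, SE 0.10, edgeR adjusted p = 0.110, DESeq2 adjusted p = 0.0103). The groups did not overlap, and the endothelial markers given beside Notch1 moved in the same direction. Spen, a corepressor that binds Rbpj, stood at 124, 127 and 126 CPM in Chd8+/+ against 108, 114 and 107 CPM in Chd8+/- (-0.18, SE 0.04, edgeR adjusted p = 0.0950, DESeq2 adjusted p = 0.00527), and at -0.11 with the offset for gene length. Maml3, a coactivator, stood at 11.9, 11.97 and 11.2 CPM against 8.70, 9.86 and 9.58 CPM (-0.30, SE 0.07, edgeR adjusted p = 0.116, DESeq2 adjusted p = 0.0481). Rfng was higher, at 136, 124 and 123 CPM in Chd8+/- against 108, 112 and 118 CPM (0.20, SE 0.05, edgeR adjusted p = 0.116, DESeq2 adjusted p = 0.0106). None of the 4 overlapped between the genotypes (23.4% of all genes did not). They were chosen by their DESeq2 calls on the same libraries, so that this adds no separate support. Without Chd8+/- replicate 2, edgeR called Spen (adjusted p = 0.0302) and Notch4 (adjusted p = 0.0476), and 327 of all genes. When each P5 library was left out in turn, DESeq2 kept the call of Spen and of Rfng in 3 of 6 fits each, that of Notch4 in 1 of the 4 fits that gave it an adjusted p, and that of Maml3 in 0 of 4. Without Chd8+/- replicate 3, the library that stood apart, the calls of Spen (-0.16, DESeq2 adjusted p = 0.0736), Notch4 (-0.37, 0.119) and Maml3 (-0.32, 0.138) were lost, and that of Rfng was kept (0.23, 0.0199). At E12.5, Rfng lay the other way (-0.20, SE 0.06, edgeR adjusted p = 0.942). It stood at 43.8, 39.6 and 43.1 CPM in Chd8+/+ and 37.8, 36.7 and 35.97 CPM in Chd8+/-. These did not overlap, as was so for 11.4% of all genes. The interaction of genotype and stage for Rfng was 0.38 (SE 0.07, edgeR adjusted p = 0.362, DESeq2 adjusted p = 0.0262). It was the 1 interaction call by DESeq2 among the listed genes (0.0938% of all genes it kept were called). By edgeR, 0 of the 51 tested were called, and 10 had an unadjusted p under 0.05 (10% of all genes had one). The interaction of Rfng is not given with a library left out.

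The genes most like Dll1 over the 12 libraries, by Pearson's r of log2 CPM among 19676 genes, were Pif1, Ahctf1, Chd1 and Rtl5, each with an r of 0.999 or more. Those most like Notch1 were Pabpc1, Hcfc1, Stk35 and Hunk, also with an r of 0.999, and those most like Hes5 were Rfx2, A930004D18Rik, Ddx31 and Ptges3, with an r of 0.996 to 0.998. The points fall into the 2 stages, so that r mostly reads the stage. It was over 0.95 for 5306 genes with Dll1, 5235 with Notch1 and 4951 with Hes5. None of the 4 nearest genes of any of these was among the other 9 Notch genes.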

How the data were processed

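Neocortical RNA from 12 libraries was sequenced with paired-end reads. The deposited values are raw counts per gene and sequencing run, made by the authors with no normalization. Per the submitters' processing notes, reads were trimmed (Trim Galore 0.4.1), aligned to GRCm38 (TopHat2 2.1.0) and counted (featureCounts 1.5.0). The P5 counting command set no strand, and that of E12.5 is not given in the sources used here. Genes with overlapping exons can therefore lose reads. Depth was 38774591 to 54695236 counts per library.

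The 2 runs of a library were summed. Genotypes were compared within each stage, and stages and the interaction in 1 model of all 12 libraries, with edgeR 4.0.16 (R 4.3.3): TMM, filterByExpr, quasi-likelihood test, Benjamini-Hochberg adjustment over all genes tested, threshold 0.05. DESeq2 1.42.0, other scalings, no filter, a loess offset for gene length (span 0.5), other sets of libraries, a replicate block, a threshold of 0.1 and each library left out in turn were tried. Scripts were tested on simulated data. Tables and figures used Python 3.11.15, pandas 2.3.3 and matplotlib 3.10.9. All 10 genes were named, and from each role list the genes with the largest and the smallest stage change in Chd8+/+ and those called by genotype. The 10 genes and the lists were chosen with earlier results of these data known. A further result of the naming rule is not reported here.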

Additional observations from a re-analysis of the deposited data

How the results depend on the processing

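All 10 genes were called lower at P5 in both genotypes under every alternative, and 0 of 10 were called by genotype at E12.5 or by the interaction under any. At P5, DESeq2 and the absence of a filter each called 1 of the 10, Notch1, and 0 to 1 were called with a library left out. Counts over all genes moved more. At E12.5, 1 gene was called, against 5 with DESeq2, 13 with no filter, 2 with all 12 libraries in the model and 0 to 2 with a library left out. At P5, 1 gene was called, against 653 with DESeq2, 995 with no filter, 4 with all 12 libraries and 1 to 327 with a library left out (327 without Chd8+/- replicate 2). The interaction gave 0 genes, against 8 with DESeq2, 17 with no filter and 0 to 2 with a library left out. The cause of these differences was not tested.

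With a replicate block, 0 genes were called at E12.5, where Chd8 had an edgeR adjusted p of 0.346, and 4 at P5. Nothing in the sources says that the numbers pair the libraries. Same-numbered libraries correlated at -0.16, -0.06 and -0.05 at E12.5 and at 0.19, 0.08 and 0.04 at P5. Differently numbered ones lay between -0.07 and 0.14 at E12.5 and between -0.14 and 0.07 at P5. With 3 libraries in a group, such values cannot decide whether the libraries are paired. The offset for gene length turned Notch2 at P5 to 0.00441, and lowered the share of higher among the stage calls in Chd8+/+ from 49.9% to 42.4%. Scaling by library size was chosen after seeing the data. It left the counts of calls by genotype, by the interaction and among the 10 genes as they were, and moved the genes called by stage from 16357 to 16391 in Chd8+/+ and from 16311 to 16285 in Chd8+/-.

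Signs of small log2 fold changes turned with a library left out. At E12.5 the ranges were -0.079 to 0.17 for Notch1, -0.17 to 0.039 for Notch3, -0.091 to 0.033 for Dll1, -0.037 to 0.12 for Dll3, -0.081 to 0.0026 for Hes1, -0.079 to 0.020 for Hes5, -0.085 to 0.049 for Hey1, -0.057 to 0.12 for Maml3 and -0.10 to 0.066 for Spen. At P5 the range was -0.17 to 0.059 for Hes1. For the interaction the ranges were -0.17 to 0.059 for Notch3, -0.027 to 0.14 for Dll3, -0.15 to 0.082 for Hes1, -0.0022 to 0.14 for Hey1 and -0.0094 to 0.064 for Rbpj.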
